A study of Arabidopsis thaliana with 16 samples.

Results

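Aquaporins are channel proteins that let water cross membranes. Tonoplast intrinsic proteins (TIPs) sit in the membrane of the vacuole and plasma membrane intrinsic proteins (PIPs) sit at the cell surface. In seeds the TIP3 isoforms are known as the aquaporins of the protein storage vacuoles of the embryo, whereas the TIP1 and TIP2 isoforms are known from vacuoles of growing tissues. Transcripts of 10 aquaporin genes were followed in mature dry seeds, out of 37336 loci in the count tables. The rule that selects them is a list of names and uses no measured value, but the list was drawn up with earlier results of these data known. The tonoplast genes are TIP3;1 (AT1G73190), TIP3;2 (AT1G17810), TIP1;1 (AT2G36830), TIP1;2 (AT3G26520) and TIP2;1 (AT3G16240). The plasma membrane genes are PIP1;1 (AT3G61430), PIP1;2 (AT2G45960), PIP1;4 (AT4G00430), PIP2;1 (AT3G53420) and PIP2;7 (AT4G35100).

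The seeds came from plants of the wild type Col-0, of 2 lines with a single mutation, brm-3 or dog1-4, and of the double mutant brm-3dog1-4, all grown in long days, and were stored dry at room temperature. BRM is the ATPase of a SWI/SNF chromatin remodeling complex, and brm-3 carries a T-DNA insertion in its gene and is a different allele from the sterile knockout brm-1. DOG1 is a regulator of seed dormancy, and dog1-4 is an insertion line in it. Each genotype has 4 libraries (16 in all), described by the series as biological replicates, made by 3′RNA-Seq, in which reads come from transcript ends. Levels are given as CPM, counts per 1000000 after TMM scaling. A gene was called changed at an adjusted p under 0.05 in the quasi-likelihood test of edgeR, with p adjusted by the Benjamini-Hochberg method over 10251 tested genes.

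Library totals ran from 803578 to 2359673 counts, and 3 counts, taken as the floor of detection, equaled 0.964 to 3.87 CPM. DOG1 transcript levels were 80.4 to 125 CPM in Col-0 and brm-3 libraries and 0.829 to 5.34 CPM in libraries with dog1-4. BRM levels were 19.3 to 42.7 CPM in Col-0 and dog1-4 and 8.96 to 18.4 CPM in the libraries with brm-3. Where the insertions lie relative to the counted transcript ends was not examined. All 12 markers of dry seed were tested, and their summed level was 112939 to 158776 CPM in Col-0 and 80697 to 106358 CPM in brm-3dog1-4. As a share of the unscaled counts these markers held 10.4% to 12.9% in Col-0 and 10.6% to 13.4% in brm-3dog1-4, which overlap. They did not move together. In brm-3dog1-4, CRA1 and SESA4 were called higher (22.8% of all tested genes). CRU2, SESA1, OLEO1, OLEO2, EM1 and EM6 were called lower (23.3%), and CRC, SESA2, SESA3 and PER1 were not called. Without TMM scaling, the median gene of brm-3dog1-4 lay 0.58 above Col-0 on the log2 scale, and that of dog1-4 lay 0.22 above. The changes reported here are relative to that median.

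Of the 10 genes, 6 passed the filter on low counts, which asks for enough counts in as many libraries as 1 genotype has, so a gene high in a single genotype could pass. They were both TIP3 genes and every PIP gene but PIP2;7. Of the tonoplast genes of vegetative tissue, TIP1;1 had 1 count, in brm-3dog1-4 replicate 4, and the other 2 had 0 counts in all 16 libraries, which allows up to 0.113 CPM over the pooled libraries. The remaining PIP gene had 30 counts in 9 libraries. These limits cover counting error only.

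The stretches before the transcription start of both TIP3 genes are shown because these transcripts were by far the most abundant of the 10. Those of the 2 PIP genes with the largest increases follow. Each run gives 200 bases in the gene's direction, from the TAIR10.1 assembly of RefSeq. They lie at chr1:27521744-27521943 (plus strand), chr1:6129825-6130024 (plus strand), chr4:187681-187880 (minus strand) and chr3:19805731-19805930 (minus strand), in the order listed. Capitals mark the RY core CATGCA, known as the element bound by B3 factors such as ABI3, and the ABRE core ACGTG, known from ABA-responsive promoters, on either strand.
TIP3;1: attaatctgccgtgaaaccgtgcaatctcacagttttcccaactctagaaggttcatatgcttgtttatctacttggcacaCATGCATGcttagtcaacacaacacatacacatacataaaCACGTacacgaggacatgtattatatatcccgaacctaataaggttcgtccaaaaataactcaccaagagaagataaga
TIP3;2: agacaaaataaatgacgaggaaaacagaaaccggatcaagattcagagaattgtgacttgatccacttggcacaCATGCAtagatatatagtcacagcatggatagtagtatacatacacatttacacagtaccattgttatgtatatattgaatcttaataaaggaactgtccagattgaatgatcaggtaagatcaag
PIP1;4: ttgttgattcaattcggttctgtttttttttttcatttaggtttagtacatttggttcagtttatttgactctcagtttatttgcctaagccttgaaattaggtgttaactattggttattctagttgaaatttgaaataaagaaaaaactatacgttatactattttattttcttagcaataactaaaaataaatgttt
PIP2;1: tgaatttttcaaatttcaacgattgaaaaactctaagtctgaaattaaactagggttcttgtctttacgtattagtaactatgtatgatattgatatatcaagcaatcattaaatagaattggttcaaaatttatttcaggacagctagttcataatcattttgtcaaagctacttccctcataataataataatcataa

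Over 250 bases upstream, TIP3;1 held 2 overlapping RY cores on opposite strands, 119 to 112 bases before the start, and 1 ABRE core 79 to 75 bases before it. TIP3;2 held 1 RY core 126 to 121 bases before its start and no ABRE core. Among 27437 promoters of the same length, 8.43% held an RY core, 22.9% an ABRE core and 2.22% both, and 6.49% held the G-box CACGTG, which overlaps the ABRE core. Around the RY core the 2 TIP3 promoters shared the run acttggcacaCATGCAt, 17 bases long, which was found in 2 of the 27437 promoters. These 2 are the TIP3 promoters themselves, since the run was picked as the longest they share. Of the other genes, TIP1;2, PIP1;1 and PIP2;7 each held 1 RY core and TIP1;1 held 1 ABRE core. The letters of neither motif occurred in the other 4 windows, those of the 2 PIP genes shown among them. These matches describe letters only.

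TIP3 transcripts made up nearly the whole aquaporin pool of dry seeds. The 35 aquaporin genes of Arabidopsis together held 0.676% to 0.917% of the counts of a library. Of these counts, the TIP3 pair held 95.6% to 96.4% in Col-0, 95.2% to 95.8% in brm-3, 92.8% to 93.9% in dog1-4 and 89.3% to 91.6% in brm-3dog1-4. The share was lowest in the double mutant, whose libraries did not overlap with those of any other genotype. Per kilobase of transcript, the mean level in Col-0 was 4440 CPM for TIP3;1, 3589 CPM for TIP3;2 and 188 CPM for PIP1;2. The next genes per kilobase were PIP1;4 at 4.71 CPM, PIP1;1 at 3.32 CPM and PIP2;1 at 1.50 CPM. Reads here come from transcript ends, so scaling by length is a second view and not a correction, and the order of these 6 genes in Col-0 differed between the 2 scales for none of them. In brm-3dog1-4 the order of means within the TIP3 pair was the other way round on both scales.

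TIP3;1, also called alpha-TIP, fell in brm-3 and more strongly in brm-3dog1-4, and no change was detected in dog1-4. Its level was 5206, 5439, 5379 and 4913 CPM in the Col-0 libraries and 3884, 4024, 4400 and 4118 CPM in brm-3. It was 4862, 5368, 5847 and 4627 CPM in dog1-4 and 2427, 2466, 2795 and 2295 CPM in brm-3dog1-4. All double mutant libraries lay below all others, the brm-3 libraries came next, and Col-0 and dog1-4 overlapped. The log2 fold change against Col-0 was -1.07 (SE 0.11, adjusted p = 4.29e-13) in brm-3dog1-4 and -0.35 (SE 0.10, adjusted p = 0.0197) in brm-3 by edgeR's quasi-likelihood test. In dog1-4 it was -0.02 (95% interval -0.23 to 0.19, adjusted p = 0.944). With library totals alone as the scale, the dog1-4 value turned to 0.20 (adjusted p = 0.0257) and the brm-3dog1-4 value was -0.51. The call in brm-3 was lost without Col-0 replicate 2 (adjusted p = 0.0570), Col-0 replicate 3 (0.0649), brm-3 replicate 1 (0.0778) or brm-3 replicate 2 (0.0601).

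TIP3;2, also called beta-TIP, fell in both genotypes with dog1-4, and no change was detected in brm-3 alone. Its level was 3630, 5460, 4106 and 3642 CPM in Col-0 and 3516, 3546, 4580 and 3804 CPM in brm-3. It was 2450, 3258, 3507 and 2022 CPM in dog1-4 and 2292, 2894, 2613 and 2562 CPM in brm-3dog1-4. Col-0 and brm-3 overlapped, dog1-4 and the double mutant overlapped, and the second pair lay below the first. The gap was narrow, with the highest dog1-4 library at 3507 CPM and the lowest brm-3 library at 3516 CPM. Col-0 replicate 2 was the highest library. By edgeR's test the log2 fold change against Col-0 was -0.58 (SE 0.14, adjusted p = 0.00349) in dog1-4, -0.70 (SE 0.14, adjusted p = 0.000167) in brm-3dog1-4 and -0.12 (95% interval -0.42 to 0.17, adjusted p = 0.685) in brm-3. The dog1-4 call was lost when only the 2 groups compared were fitted (adjusted p = 0.0776). With library totals as the scale the double mutant value was -0.13 (adjusted p = 0.348).

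**Figure D1:**
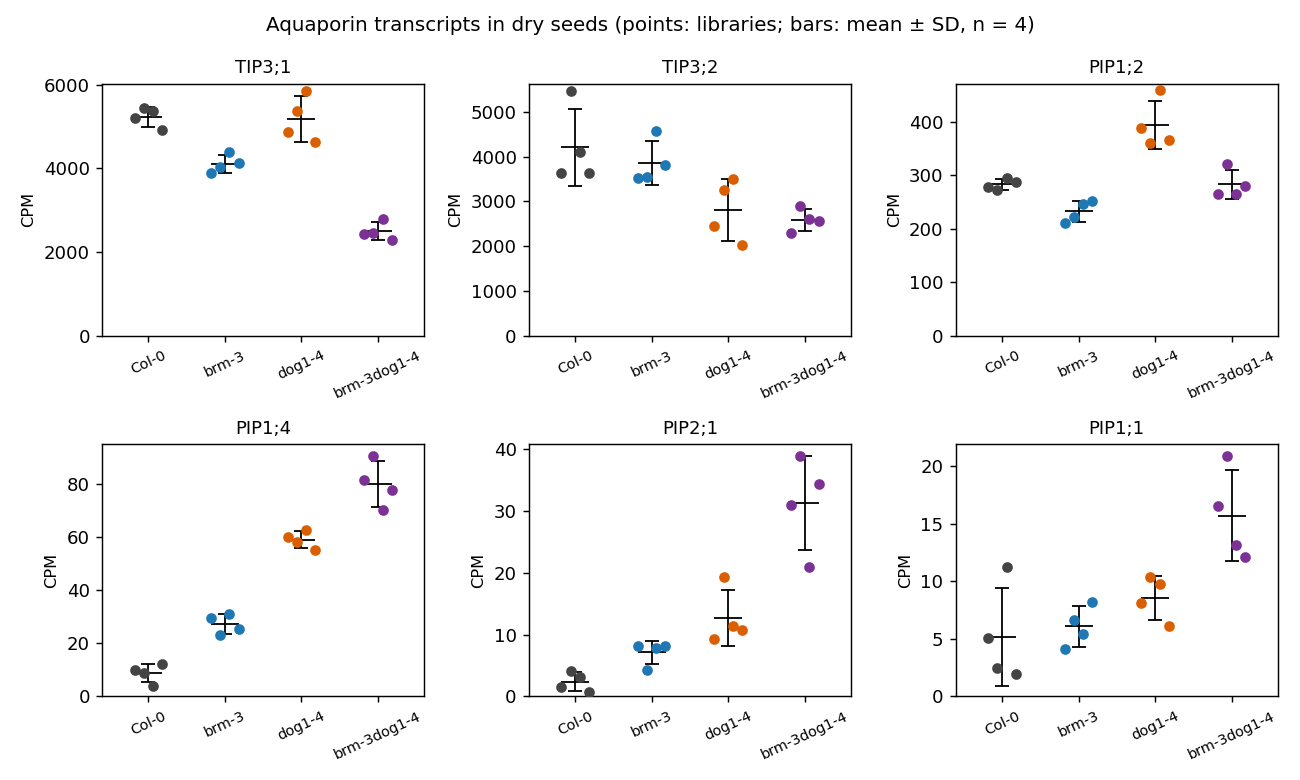
Level in CPM (y axis, from 0) of the 6 tested aquaporins in each genotype (x axis), with a point per library and bars for mean ± SD (n = 4). TIP3;1 was lowest in brm-3dog1-4 at 2295 to 2795 CPM, while PIP1;4 rose from 4.02 to 12.2 CPM in Col-0 to 70.1 to 90.6 CPM in brm-3dog1-4.

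The balance within the TIP3 pair can be read inside a library, where scaling has no part. The ratio of TIP3;2 to TIP3;1 counts was 0.437 to 0.607 in dog1-4, 0.697 to 1.00 in Col-0, 0.881 to 1.04 in brm-3 and 0.935 to 1.17 in brm-3dog1-4. The dog1-4 libraries lay below all others, and the other genotypes overlapped with their neighbours. This ratio was examined after its values were seen and is given as a description. The last 300 bases of the 2 transcripts share no run longer than 13 bases.

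**Figure D2:**
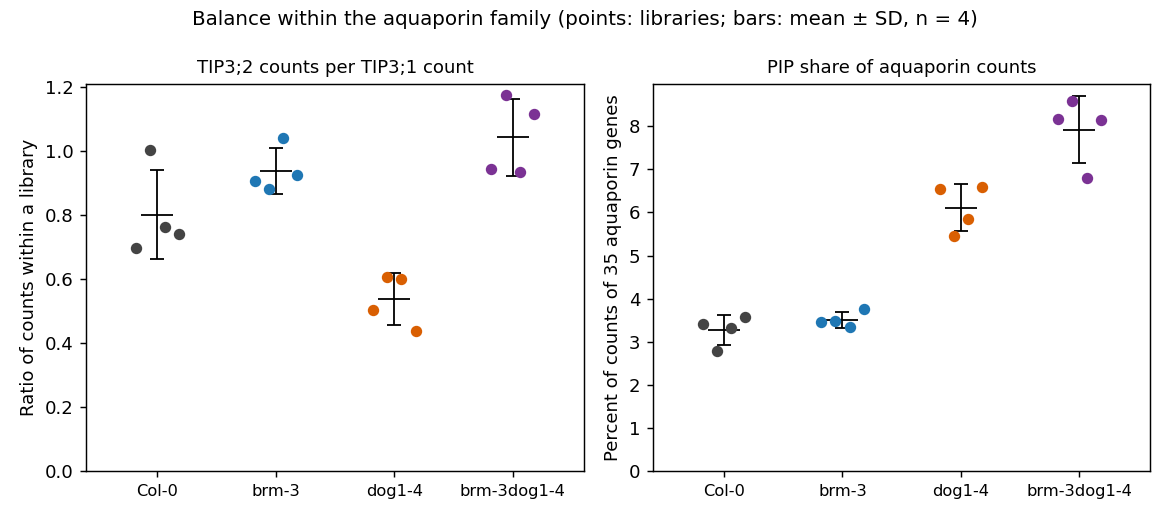
Left, TIP3;2 counts per TIP3;1 count in each library (y axis, ratio), and right, the share of PIP genes in the counts of all 35 aquaporin genes (y axis, percent), by genotype (x axis), with mean ± SD (n = 4). The ratio was lowest in dog1-4 (0.437 to 0.607) and the PIP share was highest in brm-3dog1-4 (6.80% to 8.58%).

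PIP1;2, a plasma membrane channel expressed widely in the plant, was the only PIP gene at a high level. It was 279, 273, 296 and 287 CPM in Col-0 and 212, 221, 246 and 252 CPM in brm-3. It was 389, 361, 459 and 367 CPM in dog1-4 and 266, 321, 265 and 280 CPM in brm-3dog1-4. The dog1-4 libraries lay above all others, the brm-3 libraries lay below all others, and the double mutant overlapped with Col-0. The log2 fold change by the test of edgeR was 0.48 (SE 0.10, adjusted p = 0.000108) in dog1-4, -0.28 (SE 0.10, adjusted p = 0.0493) in brm-3 and 0.00 (95% interval -0.19 to 0.19, adjusted p = 0.993) in brm-3dog1-4. The brm-3 call was close to the threshold, and under 25 other settings the adjusted p ran from 0.0212 to 0.173 and 10 of them kept the call. With library totals as the scale the double mutant value was 0.57 (adjusted p = 6.94e-07).

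PIP1;4, another plasma membrane channel of the PIP1 group, rose in every mutant. Its level was 10.1, 8.95, 4.02 and 12.2 CPM in Col-0 and 29.4, 23.1, 31.1 and 25.3 CPM in brm-3. It was 60.2, 58.1, 62.7 and 55.0 CPM in dog1-4 and 81.6, 90.6, 70.1 and 77.9 CPM in brm-3dog1-4. No 2 genotypes overlapped, and the level was lowest in Col-0, then higher in brm-3, in dog1-4 and, above all, in the double mutant. By edgeR's test the log2 fold change against Col-0 was 1.56 (SE 0.22, adjusted p = 1.18e-07) in brm-3, 2.68 (SE 0.19, adjusted p = 2.62e-17) in dog1-4 and 3.14 (SE 0.17, adjusted p = 3.19e-23) in brm-3dog1-4. The Col-0 libraries held only 5 to 20 counts of it. After 1 random thinning of all libraries to the smallest total, the values were 2.80, 3.72 and 4.22 and all remained called.

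PIP2;1, a channel of the PIP2 group, which is known for high water transport activity, followed the same order. Its level was 1.51, 4.07, 3.22 and 0.643 CPM in Col-0 and 8.19, 4.25, 7.76 and 8.23 CPM in brm-3. It was 9.31, 19.4, 11.4 and 10.7 CPM in dog1-4 and 31.1, 38.9, 21.0 and 34.3 CPM in brm-3dog1-4. The libraries of the 4 genotypes did not overlap, although brm-3 replicate 2 was close to the highest Col-0 library. The log2 fold change from edgeR was 1.67 (SE 0.44, adjusted p = 0.00539) in brm-3, 2.41 (SE 0.41, adjusted p = 4.11e-06) in dog1-4 and 3.87 (SE 0.31, adjusted p = 7.52e-17) in brm-3dog1-4. Col-0 held 1 to 5 counts per library, around the floor, and brm-3 held 7 to 14. These were too few for PIP2;1 to pass the filter through Col-0 and brm-3. It entered through the genotypes with dog1-4, so its calls there are not independent of the filter. The brm-3 call was lost on thinning (adjusted p = 0.123).

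PIP1;1, a further PIP1 channel, was called higher in the double mutant and in neither single mutant. It had too few counts in Col-0 and brm-3 to pass the filter through them and entered through the genotypes with dog1-4. Its call in the double mutant is therefore not independent of the filter. Its level was 5.05, 2.44, 11.3 and 1.93 CPM in Col-0 and 4.10, 6.67, 5.38 and 8.23 CPM in brm-3. It was 8.07, 10.3, 9.77 and 6.11 CPM in dog1-4 and 16.6, 20.9, 13.1 and 12.1 CPM in brm-3dog1-4. The double mutant libraries lay above all others, and Col-0, with replicate 3 far above its other libraries, overlapped with both single mutants. By edgeR's test the log2 fold change was 1.69 (SE 0.30, adjusted p = 3.82e-06) in brm-3dog1-4, 0.73 (SE 0.38, adjusted p = 0.194) in dog1-4 and 0.30 (SE 0.39, adjusted p = 0.723) in brm-3. Without Col-0 replicate 3 the dog1-4 value passed the threshold (adjusted p = 0.0219), and on thinning the double mutant call was lost (adjusted p = 0.112). The end of this transcript shares a run of 18 bases with that of PIP1;2, the longest among the 10 genes, and how reads matching both were counted is not given in the sources used here.

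PIP2;7 did not pass the filter and was not tested in the fit reported here. The 4 libraries of brm-3dog1-4 held 4, 16, 2 and 3 counts of it, 25 together, against 2 in all Col-0 libraries together, 2 in all brm-3 libraries and 1 in those of dog1-4. Replicate 2 of the double mutant supplied 16 of the 25. The ratio of brm-3dog1-4 to Col-0 was 8.29, with a 95% counting interval of 2.07 to 72.2.

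Read by comparison, brm-3 changed 4 of the 6 tested genes, beside 10.2% of all tested genes called, and the count was 2 without Col-0 replicate 2 or 3 or without brm-3 replicate 1 or 2. PIP1;4 and PIP2;1 were the 2 called higher (5.22% of all tested genes), and TIP3;1 and PIP1;2 the 2 called lower (5.02%). The dog1-4 mutation alone changed 4 of 6, beside 18.4%, with 3 PIP genes higher (9.84%) and TIP3;2 lower (8.58%). The double mutant changed 5 of 6, beside 46.1%, with 3 PIP genes higher (22.8%) and both TIP3 genes lower (23.3%). Requiring a log2 fold change over 1 as well left 2 in brm-3 (3.03% of all tested genes), 2 in dog1-4 (6.24%) and 4 in the double mutant (18.2%). For the 4 tested PIP genes the median log2 fold change against Col-0 was highest in brm-3dog1-4 at 2.41, followed by dog1-4 at 1.57 and brm-3 at 0.93. For the TIP3 pair it was -0.88, -0.30 and -0.24 in that order, and over all tested genes it was 0.01, 0.00 and 0.00. The 3 comparisons share the Col-0 libraries, and the counts cover only genes that passed the filter. PIP1;1 and PIP2;1 passed it only through the genotypes with dog1-4. The counts and PIP medians of dog1-4 and brm-3dog1-4 are therefore not independent of the filter.

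**Figure D3:**
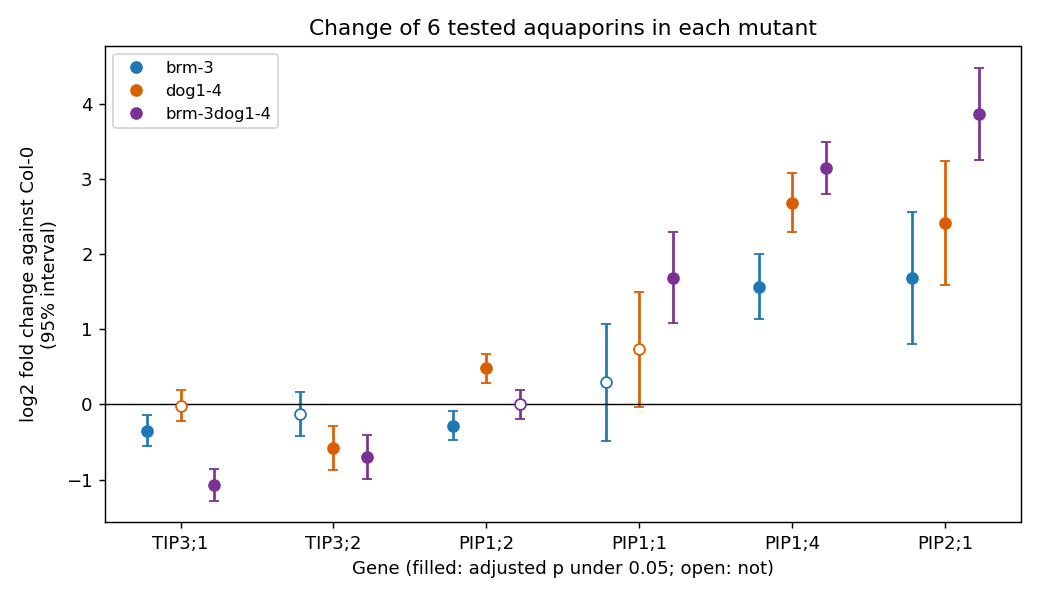
Log2 fold change against Col-0 (y axis, with 95% intervals) of the 6 tested aquaporins (x axis) in each mutant, with filled points for an adjusted p under 0.05 and open points otherwise. The highest value was 3.87 for PIP2;1 and the lowest -1.07 for TIP3;1, both in brm-3dog1-4.

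Loss of DOG1 in the brm-3 background moved all 6 tested genes, beside 38.2% of all tested genes called, and 3 of them by a log2 fold change over 1, beside 11.7%. The TIP3 pair fell, with log2 fold changes of -0.72 for TIP3;1 and -0.58 for its partner, and the 4 PIP genes rose by 0.28 to 2.19, the most in PIP2;1. The smallest of these changes, that of PIP1;2, had an adjusted p of 0.0140 in edgeR's test. This call was lost without brm-3 replicate 1 (adjusted p = 0.0808), brm-3 replicate 2 (0.0543) or brm-3dog1-4 replicate 2 (0.0781). With library totals as the scale, edgeR's test gave -0.19 (adjusted p = 0.0154) for TIP3;1 and -0.04 (adjusted p = 0.795) for TIP3;2. The median gene lay 0.56 above brm-3 on that scale. PIP1;1 and PIP2;1 entered through the genotypes with dog1-4, so their calls here are not independent of the filter.

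Addition of brm-3 to dog1-4 moved 5 of 6, beside 27.6%, and 2 of them by a log2 fold change over 1, beside 7.6%. In the edgeR test TIP3;1 was lower at -1.05 (adjusted p = 4.21e-12) and PIP1;2 at -0.48 (adjusted p = 6.85e-05). The other 3 tested PIP genes were higher, at 1.45, 0.96 and 0.46, in the order PIP2;1, PIP1;1 and PIP1;4. The remaining gene, TIP3;2, was at -0.12 (95% interval -0.41 to 0.18, adjusted p = 0.603). The call at 0.96 was lost without brm-3dog1-4 replicate 2 (adjusted p = 0.0661), and that at -0.48 with library totals as the scale (-0.13, adjusted p = 0.252). On thinning the calls at 0.96 (adjusted p = 0.392) and 0.46 (adjusted p = 0.122) were lost.

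The interaction contrast asks whether the double mutant change differs from the sum of the single mutant changes on the log2 scale. It was called for 2 of 6 genes, beside 8.79% of all tested genes, and for 1 of them with an absolute value over 1, beside 3.08%. TIP3;1 fell by 1.07 where the sum of the single changes was -0.37, an interaction of -0.70 (SE 0.15, adjusted p = 0.000738, edgeR). PIP1;4 rose by 3.14 where the sum was 4.25, an interaction of -1.11 (SE 0.26, adjusted p = 0.00214, edgeR). The latter was -2.30 on thinning. With library totals as the scale, edgeR's test gave -0.39 (adjusted p = 0.00696) for TIP3;1 and -0.78 (adjusted p = 0.0491) for PIP1;4. On that scale the median gene had an interaction of 0.31. For the other 4 genes the contrast was not called. It was 0.01 (95% interval -0.41 to 0.42) for TIP3;2, and its 95% interval spanned 0 for the 3 other PIP genes, reaching from -1.28 to 0.83 for PIP2;1.

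**Figure D4:**
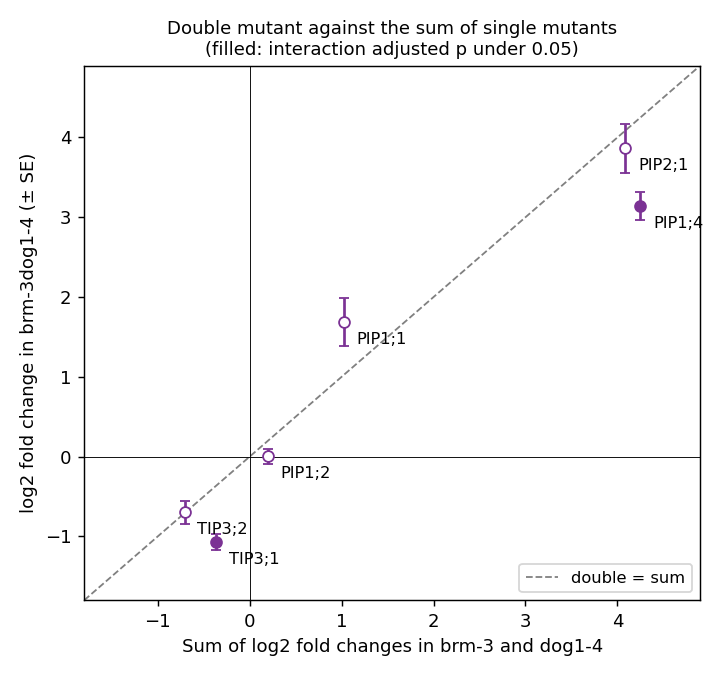
Log2 fold change in brm-3dog1-4 against Col-0 (y axis, ± SE) plotted on the sum of the changes in brm-3 and dog1-4 (x axis), with a dashed line where both are equal and filled points for an interaction adjusted p under 0.05. PIP1;4 lay below the line at 3.14 against a sum of 4.25, as did TIP3;1 at -1.07 against -0.37.

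The PIP genes differed between genotypes in their share of the aquaporin counts and in the makeup of that share. Such a share also depends on the TIP3 counts, so it does not measure the PIP level. PIP genes held 2.79% to 3.58% of aquaporin counts in Col-0, 3.33% to 3.76% in brm-3, 5.46% to 6.58% in dog1-4 and 6.80% to 8.58% in brm-3dog1-4. Within the PIP counts, PIP1;2 held 86.6% to 90.0% in Col-0 and 62.3% to 65.9% in brm-3dog1-4. PIP1;4 went the other way, from 1.22% to 3.82% in Col-0, through 8.08% to 10.9% in brm-3 and 10.7% to 11.7% in dog1-4, to 17.5% to 19.1% in brm-3dog1-4. Only brm-3 and dog1-4 overlapped in this last share.

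Of the other 25 aquaporin genes, 5 were tested, and 4 were called in brm-3dog1-4 (46.1% of all tested genes), 3 in dog1-4 (18.4%) and 1 in brm-3 (10.2%). The plasma membrane channel PIP1;3 had 0 to 2.02 CPM in Col-0, 0 to 1.76 CPM in brm-3, 3.05 to 7.74 CPM in dog1-4 and 3.31 to 7.71 CPM in brm-3dog1-4. Both genotypes with dog1-4 lay above the others (log2 fold change 2.86, adjusted p = 0.00138, and 3.00, adjusted p = 5.50e-05, edgeR). Col-0 replicate 1 held 4 counts and the other 3 Col-0 libraries 0, so these fitted values depend on the prior count. PIP2;5, of the same membrane, had 1.61 to 4.07 CPM in Col-0, 2.99 to 4.70 CPM in brm-3, 14.5 to 31.0 CPM in dog1-4 and 10.4 to 13.8 CPM in brm-3dog1-4. It was highest in dog1-4 (2.82, adjusted p = 5.52e-10) and was lower in the double mutant than there (-0.68, adjusted p = 0.0156, edgeR). PIP1;3 and PIP2;5 had too few counts in Col-0 and brm-3 to pass the filter there, so both entered through the genotypes with dog1-4.

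NIP1;2, a member of the NOD26-like group, and SIP1;1, of the small basic group known from the endoplasmic reticulum, moved in other ways. NIP1;2 had 37.9 to 74.9 CPM in Col-0, 71.7 to 84.9 CPM in brm-3, 23.7 to 42.4 CPM in dog1-4 and 65.0 to 104 CPM in brm-3dog1-4. In edgeR's fit it was higher in brm-3 (0.57, adjusted p = 0.0418) and brm-3dog1-4 (0.59, adjusted p = 0.00681) and lower in dog1-4 (-0.76, adjusted p = 0.0144), with each mutant overlapping Col-0. SIP1;1 was at 12.6 to 18.5 CPM in Col-0, 7.76 to 10.9 CPM in brm-3, 13.0 to 17.9 CPM in dog1-4 and 6.28 to 11.4 CPM in brm-3dog1-4. It was called lower in brm-3dog1-4 (-0.67, adjusted p = 0.0121), and the value in brm-3 was the same to 2 decimals (-0.67) with an adjusted p of 0.0648 (edgeR).

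**Figure D5:**
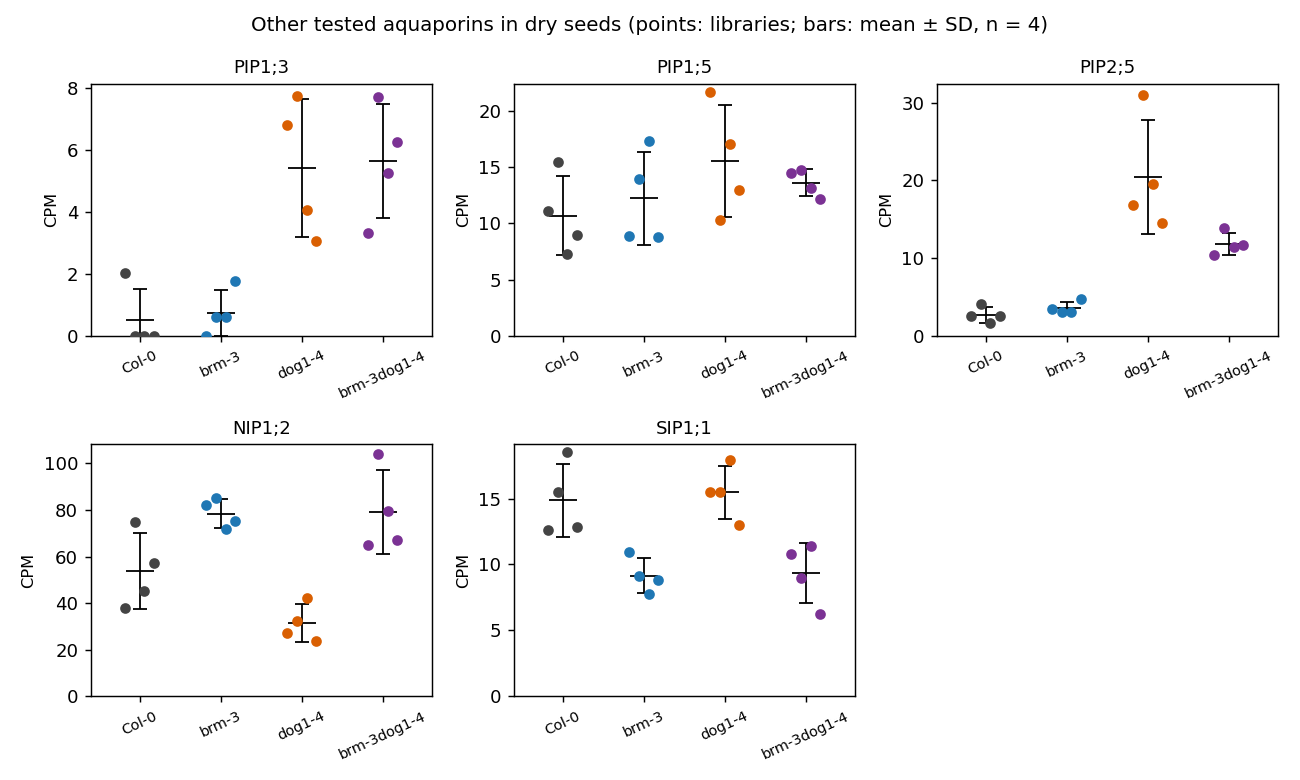
Level in CPM (y axis, from 0) of the 5 other tested aquaporins in each genotype (x axis), with a point per library and bars for mean ± SD (n = 4). PIP2;5 was highest in dog1-4 (14.5 to 31.0 CPM) and NIP1;2 was lowest there (23.7 to 42.4 CPM).

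Regulators of seed maturation are listed as context, since ABI3 is known in Arabidopsis as an activator of the TIP3 genes. ABI3 was at 96.4 to 109 CPM in Col-0 and was higher by 0.37 in dog1-4 (adjusted p = 0.0110) and 0.48 in brm-3dog1-4 (adjusted p = 0.000137) on the log2 scale by edgeR's test. ABI5, a bZIP factor of ABA signaling, was at 440 to 560 CPM in Col-0 and was at -0.77 in dog1-4 (adjusted p = 1.74e-08) and -1.09 in brm-3dog1-4 (adjusted p = 4.89e-14, edgeR). ABI4, an AP2 factor, rose in brm-3dog1-4 from 0 to 1.29 CPM in Col-0 to 7.01 to 13.5 CPM (fitted value 3.82, adjusted p = 1.91e-08, edgeR), with 0 to 2 counts per Col-0 library. It had 8 to 42 counts per library of brm-3dog1-4 and at most 6 in a library of the other genotypes. ABI4 thus passed the filter on low counts only through brm-3dog1-4, and this call is not independent of the filter. FUS3 was not called against Col-0. LEC1 had at most 1 count in a library and LEC2 had 0 counts. None of the 4 tested regulators was called in brm-3.

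Transcripts known from green leaves were measured as markers of other tissue. Of 6 leaf markers, RBCS1A, GAPA and RCA were tested, and 3 were called higher in brm-3dog1-4 (22.8% of all tested genes), 2 in dog1-4 (9.84%) and 1 in brm-3 (5.22%). GAPA had 9 to 31 counts per library in brm-3dog1-4 and too few elsewhere to pass the filter on low counts. Its call in brm-3dog1-4 is therefore not independent of the filter. RCA had 2 to 5 counts per library in Col-0 and 5 to 8 in brm-3, too few to pass there. It entered through the genotypes with dog1-4, so its calls in them are not independent of the filter either. The summed level of all 6 leaf markers was 8.95 to 16.1 CPM in Col-0, 32.2 to 35.9 CPM in brm-3, 38.7 to 58.0 CPM in dog1-4 and 72.7 to 124 CPM in brm-3dog1-4, the same order as that of PIP1;4. RBCS1A made up most of this sum, with means of 8.74, 24.5, 35.6 and 80.1 CPM in these genotypes. The means of RCA followed that order, and those of GAPA did not (4.32 CPM in brm-3 and 2.61 CPM in dog1-4). The leaf markers LHCB1.1, LHCB1.3 and CA1 stayed at or below 1.21 CPM in every library. Their part in the result was not tested. In whole seeds, fewer cells of a type and less RNA per cell cannot be told apart.

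The genes whose log2 levels ran most like those of 3 members over the 16 libraries are given as a description, from 4661 tested genes of at least 20 CPM on average. For TIP3;1 they were PDCB4 (Pearson correlation 0.985), AT5G55750 (0.983) and AT2G16890 (0.972). For TIP3;2 they were SRG3 (0.963), AT4G34450 (0.931) and AT2G44410 (0.921). For PIP1;2 they were AT2G36950 (0.937), AT4G15390 (0.924) and CYP78A7 (0.903). The TIP3 genes had a correlation of 0.52 with each other. All points share libraries and genotypes, so no p is given.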

How the data were processed

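The authors deposited unnormalized read counts per locus, in whole numbers, in 1 file for each of 16 libraries of dry seeds. The submitters' processing notes name STAR 2.7.8a, DESeq2 and the TAIR10 build. The counting program, the annotation, the use of strand and of molecular identifiers are not given in the sources used here, so reads of near-identical, overlapping and antisense genes may be shared. Names and sequences came from the TAIR10.1 annotation of RefSeq, which held 37051 of 37336 locus identifiers.

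From the counts, edgeR 4.0.16 in R 4.3.3 was run with TMM scaling, filterByExpr by genotype and the robust quasi-likelihood test, with a mean per genotype, no block, and all 16 libraries in 1 fit (biological coefficient of variation 0.0971). P-values were adjusted by Benjamini-Hochberg over 10251 of the 21204 loci with a count. Adjusted p-values were two-sided. CPM used TMM-scaled totals, and correlations used log2 CPM with a prior count of 2. The fit was tested on simulated data. Chi-square per degree of freedom between the 24 same-genotype library pairs was 1.44 to 4.34, so no library was a copy of another.

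The named genes were the 10 members, other aquaporins called in a mutant against Col-0 or at 20 CPM in any genotype, 6 maturation regulators, DOG1, BRM and the 3 genes most correlated with TIP3;1, TIP3;2 and PIP1;2. The members and lists were chosen with earlier results of these data known. Alternatives were RLE scaling, library totals, 2 other filters, DESeq2 1.42.0, fits of only the groups compared, a block by replicate number, a fold threshold and each library left out. Leaving out the 2 libraries under 1000000 counts and thinning to the smallest library were chosen after seeing the data.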

Additional observations from a re-analysis of the deposited data

Results flagged for a closer look

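PIP2;1 in brm-3 replicate 2 was at 4.25 CPM (7 counts), below the 7.76 to 8.23 CPM of the other 3 brm-3 libraries, a gap past Dixon's 95% critical value of 0.829. Of 24 groups of 4 libraries examined this was the only one, and chance alone gives about 1 in 20. The effect of dog1-4 differed between backgrounds for TIP3;1, with an interaction of -0.70, and for PIP1;4, with an interaction of -1.11, both by the interaction test of edgeR's quasi-likelihood fit (adjusted p = 0.000738 and 0.00214).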

How the results depend on the processing

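The number of called genes among the 6 tested was 4 in brm-3, 4 in dog1-4, 5 in brm-3dog1-4 (all against Col-0), 6 for brm-3dog1-4 against brm-3, 5 against dog1-4 and 2 for the interaction. With at least 10 counts required in every library, 3 of the genes were tested and 2, 2, 2, 3, 2 and 1 were called. These 3, both TIP3 genes and PIP1;2, kept every call, so the drop came from the genes no longer tested. With a log2 fold change over 1 required as well, the counts were 2 in brm-3, 2 in dog1-4, 3 against brm-3, 2 against dog1-4 and 1 for the interaction. Thinning, a single random draw, gave 2 in brm-3 and 3 against dog1-4. Without the filter on low counts PIP2;7 could also enter the fit. Over all settings the counts reached 6 in brm-3dog1-4, 7 against brm-3 and 6 against dog1-4. With 1 library left out, the counts ran from 2 to 4 in brm-3, from 4 to 5 in dog1-4, from 5 to 5 in brm-3dog1-4, from 5 to 6 against brm-3, from 4 to 5 against dog1-4 and from 2 to 2 for the interaction. TIP3;1 in dog1-4 changed sign with library totals as the scale, to 0.20, a scale on which the median gene of dog1-4 also lies 0.22 higher. The 2 libraries under 1000000 counts changed no count by more than 1.5 times when left out. Of the single-gene values, 805 kept direction and side of the threshold, 31 lost the call and 2 gained it. A further 35 changed sign while not called under either setting, such as TIP3;2 against dog1-4 with library totals (0.24) and PIP1;1 in brm-3 on thinning (-0.51). The value above, at 0.20, changed sign and was called.

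With the replicate number as a block, the counts were 4, 4, 5, 6, 5 and 2, as without it. The numbers did not pair the libraries, since deviations of same-numbered libraries correlated by only -0.03 to 0.07 over 24 pairs. Depth limits genes with few counts, such as PIP2;1 (1 to 5 per Col-0 library) and PIP1;1 (3 to 14).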
